A study of Drosophila melanogaster with 3 samples.

Results

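The comparison described here set whole larvae carrying *mxcG43*, a hypomorphic allele of *multi sex combs* (*mxc*) that shows no tumour phenotype, against wild-type larvae of the Canton S strain. It covers every entry of the deposited expression table that stands for 1 gene, 14900 of 15185 entries; the other 285 join several genes whose reads were not separated. RNA of larvae, taken whole in the 3rd instar, was sequenced in 1 library for each of 3 genotypes: Canton S, *mxcG43* and the tumour-bearing allele *mxcmbn1*. The study reports collecting male larvae for controls and mutants, without naming *mxcG43* there. *mxcG43* came from a stock centre and Canton S was the wild-type stock. Effects of the allele therefore cannot be told apart from other differences between the stocks or between the batches of larvae. The wild-type and *mxcG43* groups were of the same labelled stage and whole-body samples, and no other allele or treatment is named for either. The *mxcmbn1* library, from larvae whose stock also carried *w1*, is given below only beside these 2.

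*mxc* encodes a protein of the histone locus body, the nuclear structure in which the replication-dependent histone genes are transcribed, and it was first named as a Polycomb group gene because mutants show homeotic changes. Strong loss of *mxc* disturbs blood cell growth in the larval lymph gland and the male germline. The larval epidermis, gut, fat body and salivary glands make up most of the RNA of a whole larva, and the last larval days bring pulses of ecdysone that change cuticle, glue and storage protein expression in sequence.

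Levels are in FPKM, fragments scaled to exon length and to the mapped fragments of a library, so gene length and library size are already taken out. There is 1 library a side, so that differences could not be set against replicates or given p-values. A gene was compared when its FPKM was at least 1 in either library, which left 11598 genes, and was counted as higher or lower when the levels differed by 4 times or more. Judged from genes with few reads, the depth of the *mxcG43* library was 0.970 of that of wild type. In a gene of 1000 bases of exon, 1 wild-type read is worth an FPKM of 0.111. Intervals given with ratios are exact 95% intervals on recovered or estimated reads and cover counting error only. In whole larvae, fewer cells of a type and less RNA per cell cannot be told apart.

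The mutated gene itself, *mxc* (XLOC_014407, on X in BDGP5), had an FPKM of 1.96 in wild type, 1.94 in *mxcG43* and 3.56 in *mxcmbn1*. The level in *mxcG43* was thus 0.991 times that in wild type, on about 133 and 128 reads. The amount of *mxc* RNA does not separate the *mxcG43* library from the wild-type library, and the level of a hypomorphic transcript need not fall, so this value does not check the label. Both libraries carried the RNAs of male dosage compensation. *roX1*, a noncoding RNA that coats the male X chromosome, was at 247 in wild type and 201 in *mxcG43*. None of the 3 yolk protein genes reached an FPKM of 1, but adult females express them, so in larvae this does not bear on sex. Salivary glue and larval serum protein genes, which mark late larvae, were high in both libraries, with summed FPKM of 32757 and 25876 for 11 glue genes.

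Most genes were close between the libraries. Of 11375 compared genes above 0 in both, 10042 (88.3%) lay within 2 times either way. The median ratio of *mxcG43* to wild type was 0.966, with 5% of genes under 0.464 and 5% above 2.14. Over all compared genes the median log2 difference was -0.05, taken on FPKM plus 0.1, the scale of every list median below.

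**Figure D1:**
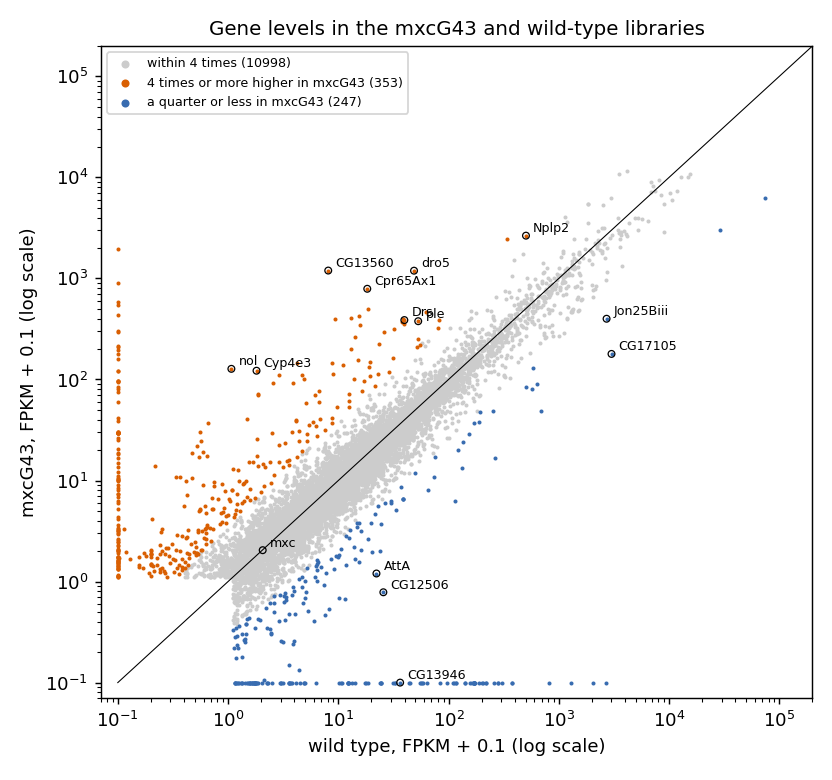
FPKM plus 0.1 of each compared gene in the wild-type library (x, log scale) and the *mxcG43* library (y, log scale), 1 point a gene, with 353 genes higher in *mxcG43* in orange, 247 lower in blue and the line of equal levels. Most points lie along the line; the points at the edges are genes listed at 0 in 1 library, and *mxc* lies on the line at 1.96 and 1.94.

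In *mxcG43*, 353 genes were at 4 times the wild-type level or more, 3.04% of those compared, and 247 were at 0.25 times or less, 2.13%. Of the higher genes, 251 were protein coding and 109 were listed at 0 in wild type. Of the lower genes, 126 were protein coding and 114 were listed at 0 in *mxcG43*. Many of these calls rest on few reads. Among the higher genes above 0 in both libraries, 89 of 244 had 3 reads or fewer in wild type, and among the lower genes, 53 of 133 had 3 or fewer in *mxcG43*. Just inside the limit lay *CG14664* with a ratio of 4.004 and *CG42287* with 0.248, and just outside it *CG4404* with 3.996 and *CR43605* with 0.25003.

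Genes of small RNAs and rRNAs were 34.8% of the lower genes and 15.3% of the higher ones, against 1.73% of all compared genes. They are short, and a single read gives them a high FPKM. *mir-1003*, a microRNA gene, had the highest wild-type level among genes at 0 in *mxcG43*, an FPKM of 2683. The mitochondrial proline tRNA gene, *mt:tRNA:P*, followed with 2040.4 in wild type, 0 in *mxcG43* and 3763 in *mxcmbn1*, which came from 2, 0 and 5 reads. In the other direction *snoRNA:Me28S-C3351*, a guide RNA for ribosomal RNA methylation, was at 0 in wild type and 1939.8 in *mxcG43*, or 0 and 10 reads. The biology below therefore concerns protein-coding genes, of which 2.32% were higher and 1.16% lower. They were short as well. The median exon length was 868 bases for the higher and 777 for the lower protein-coding genes, against 1802 for all those compared.

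With the limits the study used for its tumour-bearing mutant, 134 genes were more than 10 times higher in *mxcG43* (1.03% of the 12983 genes above 0 in wild type) and 359 were under 1% (2.77%). The second number holds almost entirely zeros. Of the 359 genes, 357 were listed at 0 in *mxcG43*, 243 had a wild-type FPKM under 1, and of the 61 with an FPKM of at least 10 only 3 were protein coding. These were *CG13946*, *CG42620* and *CG42713*, taken up below.

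Cuticle and tanning genes stood out among the higher genes. Cuticular proteins bind chitin and form the layers of the exoskeleton; 64 of the 109 in the table were compared, 13 were higher (20.3%, against 3.04% of all genes) and 3 lower, with a median log2 difference of 0.48. *Cpr65Ax1* went from an FPKM of 18.2 in wild type to 790 in *mxcG43*, with 118 in *mxcmbn1*. This was a ratio of 43.4, on about 39 wild-type reads. *Cpr47Eg* was at 15.3 in wild type, 421 in *mxcG43* and 185 in *mxcmbn1*. In both genes the *mxcG43* library had the highest of the 3 levels and wild type the lowest.

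The same order held in a block of larval cuticle genes on 3L. *Lcp65Ag1* was at 9.28 in wild type, 397 in *mxcG43* and 230 in *mxcmbn1*, 42.8 times higher in *mxcG43*. *Lcp65Ae* was at 14, 264 and 54.5 in the same libraries. Their neighbours *Lcp65Ag2* (5.0, 58.5 and 54.2) and *Lcp65Af* (1.97, 14.5 and 2.07) were higher in *mxcG43* too, so that 4 adjacent compared genes between 6126090 and 6131218 were all called higher. *Lcp65Ag1*, *Lcp65Ag2* and *Lcp65Ag3* are near-identical copies, as are *Cpr65Ax1* and *Cpr65Ax2*, and the division of reads among copies is uncertain.

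Other structural cuticle genes of low wild-type level were also higher. *TwdlO*, which encodes a Tweedle protein of the cuticle, was at 0.546 in wild type, 17.5 in *mxcG43* and 4.56 in *mxcmbn1*. With 3 and 93 reads behind the first pair, its ratio of 32.0 has an interval of 10.6 to 158. The neighbouring *TwdlP* was at 0.644, 8.81 and 4.28, and *Acp1*, a cuticle protein first found in adults, at 0.270, 10.8 and 2.53. These 3 genes were chosen after their values were seen. *Cht4*, a chitinase likewise picked from its values, was at 6.77 in wild type, 40.9 in *mxcG43* and 6.02 in *mxcmbn1*.

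A few cuticle genes went the other way. *Cpr49Ah* was at 15.9 in wild type, 1.97 in *mxcG43* and 2.08 in *mxcmbn1*, a ratio of 0.124 (0.0704 to 0.206). *Cpr66Cb* was at 4.99, 0.687 and 0.655. *Edg78E*, an ecdysone-dependent cuticle gene, was at 4.06 in wild type, listed at 0 in *mxcG43* and at 0.257 in *mxcmbn1*, at least 11.3-fold lower in *mxcG43* when 0 is set to 3 reads. Summed cuticle RNA was not higher. *Lcp3*, the list's most abundant member, was at 12724 in wild type and 10035 in *mxcG43*, and the summed FPKM of the 64 genes was 44685 and 36574. The 13 higher genes thus stood among a list whose most abundant member was 0.789 times the wild-type level.

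Tanning enzymes turn tyrosine into the catechols that harden and colour the cuticle. Of 13 compared, 5 were higher (38.5%, against 3.04% of all genes) and none lower, and the median log2 difference was 0.79. *ple*, tyrosine hydroxylase and the first step of the pathway, was at 53.0 in wild type, 377 in *mxcG43* and 5.62 in *mxcmbn1*, 7.12 times higher in *mxcG43*. *e*, which joins beta-alanine to dopamine, was at 4.63, 110 and 1.93, 23.7 times higher. *b*, the decarboxylase that makes beta-alanine, was at 5.31, 35.4 and 0.777. All 3 had their highest level in *mxcG43* and their lowest in *mxcmbn1*.

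The ratio for *b* was 6.67 (5.48 to 8.18, on 116 and 750 reads). *yellow-c*, of the yellow family, was at 8.60, 37.2 and 4.67, and *yellow-f2*, a dopachrome conversion enzyme, at 0.281, 1.31 and 4.51. The step between *ple* and *e* moved less. *Ddc*, dopa decarboxylase, was at 46.5 in wild type and 84.5 in *mxcG43*, within 4 times, and *Dat*, which acetylates dopamine, was at 31.6 and 15.1.

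**Figure D2:**
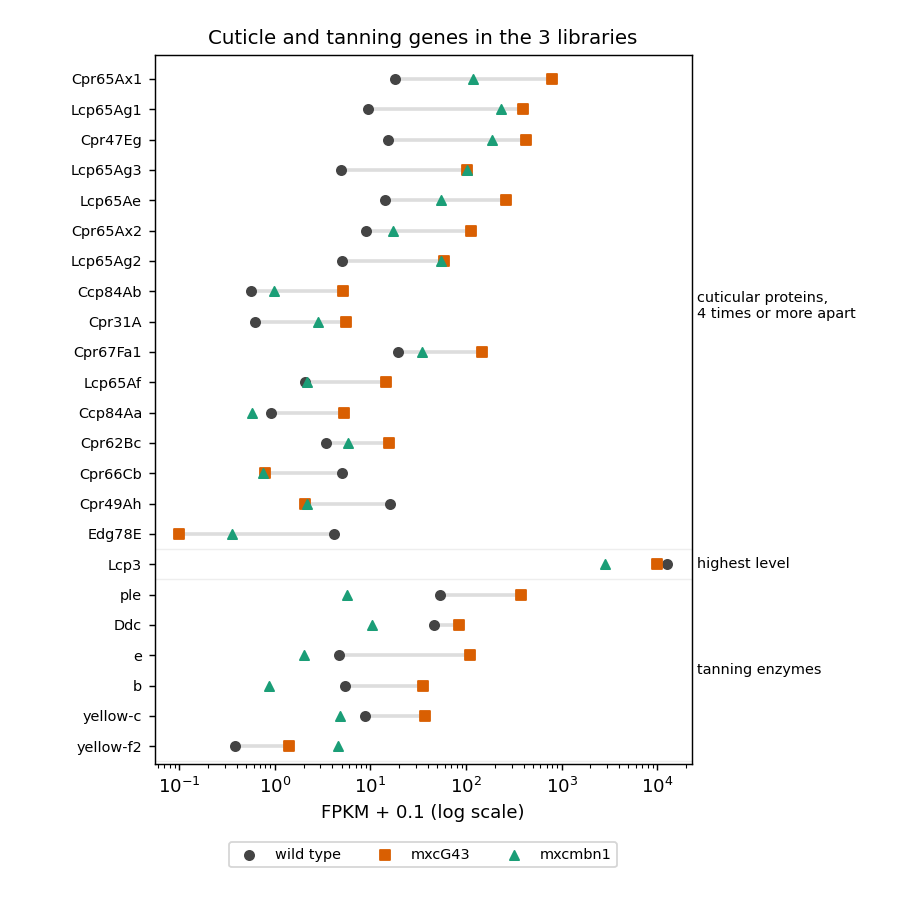
FPKM plus 0.1 (log scale) of the cuticular proteins that differed by 4 times or more, of *Lcp3* and of 6 tanning enzymes, with wild type as circles, *mxcG43* as squares, *mxcmbn1* as triangles and a grey bar joining wild type and *mxcG43*. The squares lie right of the circles for all but *Cpr66Cb*, *Cpr49Ah*, *Edg78E* and *Lcp3*; for *ple*, *Ddc*, *e*, *b* and *yellow-c* the triangles lie left of both.

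The highest ratio among genes that reached 10 FPKM in 1 of the pair and were detected in the other was that of a gene on none of the lists. *CG13560* was at 8.01 in wild type, 1197 in *mxcG43* and 75.6 in *mxcmbn1*, a ratio of 149, and is the first of 4 adjacent genes on 2R from 19635096 to 19640018 that were all called higher. At the other end of the block, *CG11300* was at 18.3, 494 and 59.2, a ratio of 27.0 (21.5 to 34.3). The genes between them, *CG34105* and *CG12491*, were listed at 0 in wild type and at 18.6 and 18.3 in *mxcG43*. The latter pair are copies with nearly equal values, 0.635 and 0.623 in *mxcmbn1*, and were at least 26.3-fold and 26.2-fold higher in *mxcG43* when 0 is set to 3 reads.

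Other genes without a list were led by *nol*, at 0.972 in wild type, 127 in *mxcG43* and 1.61 in *mxcmbn1*. It rests on 4 wild-type reads, and its ratio of 131 has an interval of 50.8 to 483. *CG11350* was at 12.9, 407 and 93.3. *Nplp2*, a neuropeptide-like precursor, had the largest rise in FPKM itself among protein-coding genes past 4 times, from 504 to 2650.3, while *mxcmbn1* was higher still at 11491. The size of a rise and the order of the 3 libraries thus differed from gene to gene.

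Some genes called the same way lay side by side, and the share to be found among any adjacent genes was not worked out. Of the 353 higher genes, 95 (26.9%) were in 34 runs of adjacent compared genes, and of the 247 lower ones 61 (24.7%) were in 22 runs. Some runs are tandem copies that share reads, the longest being 13 *Stellate* copies on X and 12 5S rRNA copies on 2R. Whether the other runs hold copies was not tested. On 3L, *CG7924* was at 37.6 in wild type, 367 in *mxcG43* and 3.28 in *mxcmbn1*, and its neighbours *CG34244* (14.9, 155 and 1.04) and *CG7906* (39.7, 353 and 3.19) followed the same order. In this trio, picked after its values were seen, the *mxcG43* level was near 10 times that of wild type in each gene, from 8.89 to 10.4 times. On 3R, *CG14852* was at 4.13, 145 and 131, in a run with *CG14850*, *CG14851* and *CG8087*.

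Over 2L, 2R, 3L, 3R and X the higher genes made up from 2.26% on X, 41 of 1818 genes, to 3.66% on 3L, 81 of 2213. The lower genes made up from 1.52% on 3R to 2.99% on 2R. These shares cover all gene classes, and the 70 lower genes on 2R include a run of 12 5S rRNA copies and a run of 5 tRNA genes. None of 83 compared genes on chromosome 4 was higher and 1.20% were lower. The entries not placed on an arm had 12 higher genes of 75, among them *Stellate* and *Suppressor of Stellate* copies. *mxc* lies on X, and X was not the arm with the most calls.

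The *Stellate* genes on X encode a protein that forms crystals in spermatocytes when the Y-linked *Suppressor of Stellate* repeats do not silence them. Of 56 copies of both, 24 were compared and 22 were higher (91.7%, against 3.04% of all genes). The summed FPKM of the 24 was 4.52 in wild type and 57.9 in *mxcG43*. Most compared copies passed the minimum only through *mxcG43*, the wild-type median being 0.0989. For those copies, lying above wild type was fixed in advance. *SteXh:CG42398* was at 0.497, 8.83 and 6.66, and *Su(Ste):CR42426* at 0.319, 9.87 and 5.13. With about 2 reads in wild type for each, and reads shared by near-identical copies, the 22 calls are not separate measurements. They are low in both of these libraries, with 1.11 the highest level of a copy in wild type and 9.87 in *mxcG43*. In *mxcmbn1* 1 copy, *Su(Ste):CR42418*, was at 76.4 and makes up most of a sum of 99.7.

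The testis list gave no such difference. Of 48 compared genes of spermatocytes and spermatids none was called, and the median log2 difference was -0.32, with 42 genes below and 6 above wild type. *Mst84Dc*, which encodes a protein of the sperm tail and had the list's highest mean, was at 301 in wild type, 254 in *mxcG43* and 2.44 in *mxcmbn1*. The list's summed FPKM was 3228 in wild type, 2560 in *mxcG43* and 95.9 in *mxcmbn1*. Spermatocyte RNA was thus present in *mxcG43* at close to its wild-type level, while all but a small share was missing from *mxcmbn1*.

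Y-linked genes, transcribed in spermatocytes, gave the same picture with 1 exception. *ARY* was at 7.0 in wild type, 6.94 in *mxcG43* and 0.276 in *mxcmbn1*, and *Pp1-Y2*, a phosphatase gene, at 2.93, 2.66 and 0. The exception was *Pp1-Y1*, another phosphatase gene, at 4.79 in wild type (about 23 reads) and listed at 0 in both mutants. At 3 reads for 0 this was at least 7.50-fold lower in *mxcG43*. *Pp1-Y1* lies next to *CG42620* among the compared entries not placed on an arm, and *CG42620* was at 23.7 in wild type and at 0 in both mutants. The reads of *CG42620* were neither recovered nor estimated, and its entry spans only 8502214 to 8502369. An entry of similar span, *snoRNA:2R:9445410*, was at 44.8 in wild type on 5 reads, so the level of *CG42620* may rest on few reads. The Y genes were picked after their values were seen.

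**Figure D3:**
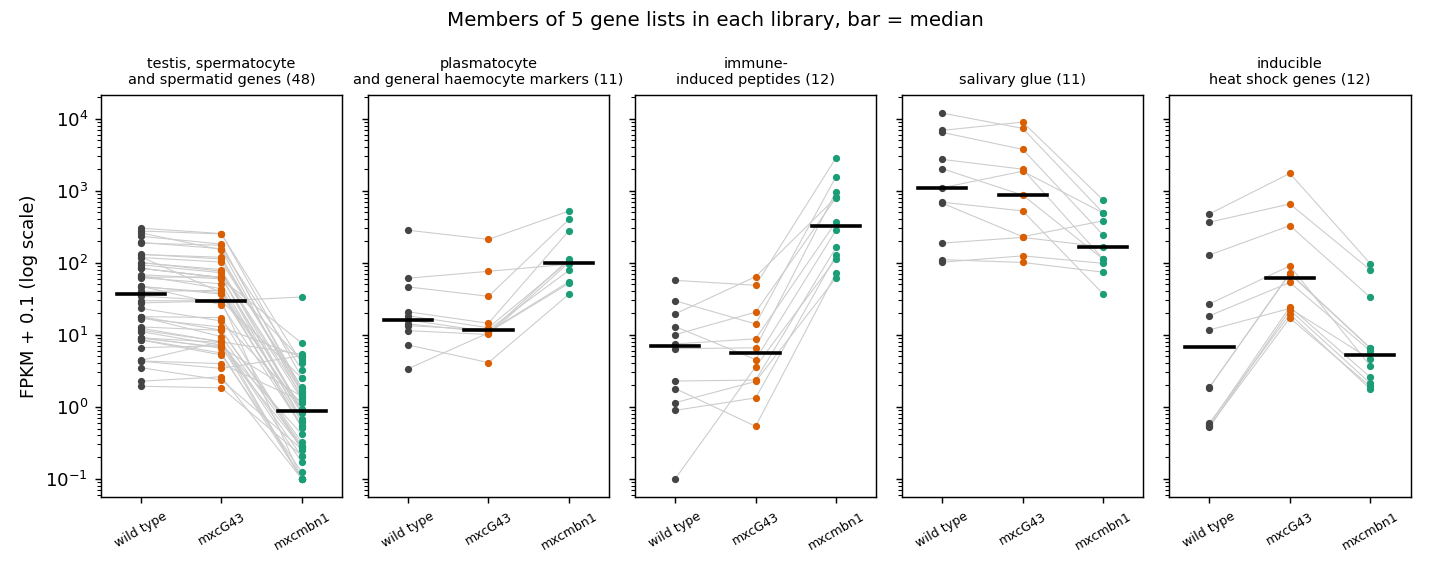
FPKM plus 0.1 (log scale) of the compared members of 5 gene lists in each of the 3 libraries, with grey lines joining the values of 1 gene and a bar at the median of each library. Testis and haemocyte genes of *mxcG43* lie near those of wild type, with median FPKM of 29.4 against 37.0 and 11.6 against 15.9. Heat shock genes have a median of 61.6 in *mxcG43* and 6.67 in wild type, with 6 of the 12 being *Hsp70* copies that share reads.

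Blood cell genes also stayed near wild type. None of 11 compared markers of plasmatocytes and of haemocytes in general was called, and their median log2 difference was -0.42, with 9 below wild type. *vir-1*, the most abundant, was at 282 in wild type, 210 in *mxcG43* and 520 in *mxcmbn1*. *Hml*, a clotting protein of plasmatocytes, was at 11.3, 9.98 and 100. *nimC1*, a phagocytosis receptor, stood apart with 3.28 in wild type, 10.5 in *mxcG43* and 112 in *mxcmbn1*, 3.20 times higher in *mxcG43* on about 90 and 278 reads. *Pvf2*, a growth factor for haemocytes, was at 4.48, 3.64 and 45.9, a ratio of 0.812 with an interval of 0.590 to 1.11.

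The lamellocyte and crystal cell list had 6 compared genes and no call. Its median log2 difference was 0.47, with 5 genes above wild type and 1 below. The gene below was *atilla*, a lamellocyte surface protein, at 20.9 in wild type and 9.12 in *mxcG43*. The lists nearest to *mxc* in function had no call. None of 13 genes of the histone locus body and the histone variants was called (median -0.11), nor any of 43 compared replication-dependent histone copies (0.28), 25 DNA replication genes (-0.03), 17 mitotic cell cycle genes (-0.11) or 20 Hox and Polycomb group genes (0.07). Of the 43 histone copies, from 111 in all, 35 lay above wild type and 8 below. Their median FPKM was low, 3.14 in wild type and 3.80 in *mxcG43*, and such copies may share reads. *His4r*, a histone H4 gene outside the histone cluster, was at 644 in wild type and 595 in *mxcG43*. *mus209*, the fly PCNA, was at 42.3 and 37.1.

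Immune genes went both ways. Antimicrobial peptides are secreted by the fat body after Toll or Imd signalling. Of 14 compared, 3 were higher (21.4%, against 3.04% of all genes) and 5 lower (35.7%, against 2.13%). The median log2 difference was -0.93 while the summed FPKM went from 145 to 427, most of which is *Drs*. *Drs*, the antifungal peptide drosomycin, was at 39.6 in wild type, 387 in *mxcG43* and 889 in *mxcmbn1*. *Def*, defensin, was at 0.454, 5.15 and 6.36, but on 1, 11 and 19 reads, so that its ratio of 11.3 has an interval of 1.65 to 488. The third call, *CecA1*, rests on about 2 reads in *mxcG43* against 0 in wild type. By qRT-PCR with biological replicates, the study reports no rise in *mxcG43* like that in *mxcmbn1* for any peptide gene it measured. *Drs* and *Def* were among those genes. Its control was *w/Y* larvae, whereas the ratios here come from 1 library a side against Canton S.

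The 5 lower peptides were *AttA*, *AttB*, *Dro*, *DptB* and *CecC*. *AttA*, an attacin against Gram-negative bacteria, was at 22.1 in wild type, 1.1 in *mxcG43* and 20.2 in *mxcmbn1*, on about 147 and 7 reads in the first pair. *AttB* was at 13.8, 2.10 and 9.01, and *Dro*, drosocin, at 6.23, 1.32 and 6.36. The 3 genes are adjacent on 2R, and *AttA* and *AttB* are copies that share reads. *DptB*, a diptericin, was at 20.1, 1.85 and 56.8, a ratio of 0.0921 (0.0288 to 0.228).

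*Dpt* itself was at 20.3 in wild type, 6.25 in *mxcG43* and 35.3 in *mxcmbn1*, a ratio of 0.308 (0.177 to 0.514). *CecC*, a cecropin, was at 2.93, 0 and 43.2, on 6 reads or so in wild type. *Mtk*, metchnikowin, had 6 and 10 reads and *CecA2* about 2 and 1, too few to tell a difference. *AttA*, *AttB*, *Dro*, *Dpt*, *DptB* and *CecC* thus had their lowest level of the 3 libraries in *mxcG43*. The pathway genes themselves were not called: 0 of 11 Toll genes (median 0.25) and 0 of 9 Imd genes (-0.20).

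Relatives of *Drs* and several recognition proteins were higher. *dro5*, a drosomycin-like peptide, was at 48.5 in wild type, 1193 in *mxcG43* and 7.73 in *mxcmbn1*, 24.6 times higher in *mxcG43*. *dro2* was at 10.9, 139 and 63.6, a ratio of 12.8 (7.71 to 22.9). Both compared *Drosomycin*-like genes other than *Drs* were therefore highest in *mxcG43*, and *dro5* was lowest in *mxcmbn1*. The 2 genes are neighbours on 3L.

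Of 15 compared recognition proteins, 4 were higher (26.7%, against 3.04% of all genes) and none lower, with a median log2 difference of -0.07. All 4 are short peptidoglycan recognition proteins (PGRPs). *PGRP-SC1a*, an amidase that cleaves peptidoglycan and is expressed in the gut, was at 15.7 in wild type, 347 in *mxcG43* and 302 in *mxcmbn1*. *PGRP-SC1b*, its near-identical copy, was at 13.0, 200 and 219, and *PGRP-SC2* at 81.4, 387 and 415. *PGRP-SB2* was at 1.14, 12.6 and 0.141. For the SC genes the *mxcG43* and *mxcmbn1* libraries lay within 1.5 times of each other.

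*PGRP-LB*, an amidase that dampens Imd signalling, was at 24.5 in wild type and 10.9 in *mxcG43*, within 4 times. *LysX*, a lysozyme, was at 23.3, 222 and 466. It was the only called lysozyme of 7, and the list's median was -1.03. The immune-induced peptides had 1 call of 12, *IM23*, listed at 0 in wild type, at 3.50 in *mxcG43* and at 114 in *mxcmbn1*. *IM3*, the most abundant, was at 56.8, 48.5 and 2850.1. *CG15068* was at 19.4, 63.9 and 803, and none of the other 10 was past 2.06 times its wild-type level in *mxcG43*. The lowest against wild type was *CG15067*, at 1.69, 0.437 and 71.5, just outside the limit at a ratio of 0.258 on about 4 and 1 reads.

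**Figure D4:**
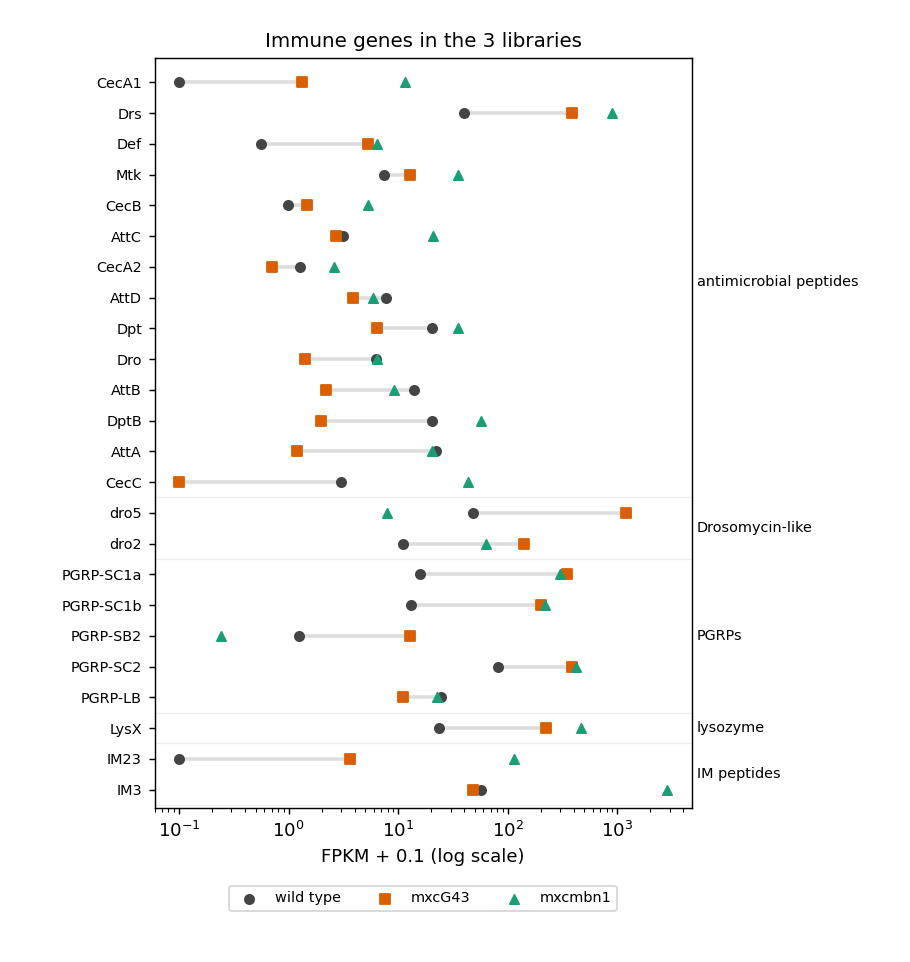
FPKM plus 0.1 (log scale) of 14 antimicrobial peptide genes, both *Drosomycin*-like genes, 5 PGRP genes, *LysX* and a pair of immune-induced (IM) peptides, with wild type as circles, *mxcG43* as squares, *mxcmbn1* as triangles and a grey bar joining wild type and *mxcG43*. *Drs*, *dro5*, *dro2* and the PGRP-SC genes have squares far right of the circles, while *AttA*, *AttB*, *Dro*, *Dpt*, *DptB* and *CecC* have squares left of both other symbols.

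Heat shock genes were higher throughout in *mxcG43*. All 12 compared were above wild type, 6 by 4 times or more (50%, against 3.04% of all genes). No gene lay near the median log2 difference of 3.42, which falls between *Hsp70Ba* (4.98) and *Hsp23* (1.87). The 6 genes past 4 times are copies of *Hsp70*, the chaperone gene family induced by heat and other stress. The median therefore depends on counting these copies singly. *Hsp70Aa* was at 1.77 in wild type, 70.1 in *mxcG43* and 6.37 in *mxcmbn1*, and *Hsp70Bb* at 0.420, 21.9 and 2.02. Ratios of the 6 copies ran from 38.5 to 52.2, but the copies share reads and count as 1 signal. *Hsp70Ba*, *Hsp70Bbb*, *Hsp70Bb* and *Hsp70Bc* were under 1 in wild type. They were compared only through *mxcG43* and could only lie above wild type.

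The small heat shock genes, which ecdysone also induces in late larvae, were at high levels. *Hsp23* was at 475 in wild type, 1733 in *mxcG43* and 97 in *mxcmbn1*, 3.65 times higher in *mxcG43*. *Hsp26* was at 128, 327 and 33.0, and *Hsp27* at 365, 653 and 79.2. *Hsp68*, a relative of *Hsp70*, was at 18.2, 53.0 and 5.87. Each of these 4 had its highest level in *mxcG43* and its lowest in *mxcmbn1*, and none of the 4 was past 4 times.

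Metallothioneins, small proteins that bind copper and zinc, were higher in 3 of 10 compared genes of metal binding (30%, against 3.04% of all genes). *MtnC* was at 6.10 in wild type, 70.5 in *mxcG43* and 5.40 in *mxcmbn1*, on 5 and 56 reads in the first pair, a ratio of 11.6 (4.67 to 37.0). *MtnD* was at 28.6, 119 and 32.0, and its neighbour *MtnE* at 22.9, 113 and 38.8. *MtnA*, the most abundant metallothionein, was at 161, 404 and 554. All of these were above wild type, and *Fer3HCH*, a ferritin gene at 5.01 and 2.84, was the only one of the 10 genes below it.

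Among genes of the gut and of detoxification, few were called and they went both ways. *Cyp4e3*, a cytochrome P450 gene, was at 1.71 in wild type, 122 in *mxcG43* and 121 in *mxcmbn1*, a ratio of 71.2, and *Cyp6a2*, a P450 known from insecticide resistance, was at 0.301, 5.46 and 5.33. *Cyp6a8* was at 36.8, 8.51 and 14.1, and *Cyp9h1* at 15.5, 3.68 and 4.52. The 74 compared P450 genes had 2 higher and 2 lower, 2.70% each way, which is close to the shares over all genes, and a median of -0.31. In all 4 called P450 genes the wild-type library was the one that stood apart.

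Mucins line the gut. *Mur29B*, a mucin-related gene, was at 80.9 in wild type, 326 in *mxcG43* and 74.8 in *mxcmbn1*, just past 4 times. *Muc68E* was at 4.03, 38.6 and 4.08, and *Muc30E* at 0.0175, 1.86 and 0.0775, the last on 1 and 103 reads, with an interval of 18.6 to 4236 on its ratio of 106. These 3 were highest in *mxcG43* and made up the calls among 14 genes of the peritrophic matrix and mucins (21.4%, against 3.04% of all genes).

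Among 28 gut proteases 1 was called. *Jon25Biii*, a chymotrypsin-like protease, was at 2712 in wild type, 399 in *mxcG43* and 331 in *mxcmbn1*, a ratio of 0.147, while *Jon65Aiv*, the most abundant protease of the list, was at 7472 and 7374. None of 14 carbohydrate-digesting enzymes was called, with a median of -0.78 and 11 below wild type.

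Among protein-coding genes past 4 times, the largest fall in FPKM was that of *CG17105*, at 3006 in wild type, 179 in *mxcG43* and 74.3 in *mxcmbn1*, a ratio of 0.0595. *CG13947* was at 689, 49.1 and 191, and its neighbours on 2L fell with it. *CG12506* was at 25.5, 0.683 and 7.03, on about 79 and 2 reads in the first pair, a ratio of 0.0268 (0.00311 to 0.0975). *CG13946*, between them, was at 36.3, 0 and 0.532, at least 21.2-fold lower in *mxcG43* with 0 set to 3 reads. The block, whose members are known here only by number, spans 773547 to 779655, and its summed FPKM went from 751 to 49.7.

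Other large falls were those of *CG4362* (638 in wild type, 89.6 in *mxcG43* and 161 in *mxcmbn1*), *lcs* (577, 80.9 and 445) and *CG15404* (582, 131 and 12.7). *CG9672* was at 265, 16.4 and 24.7. *Uro*, urate oxidase, an enzyme of the Malpighian tubule, was at 135, 24.2 and 116. Its low value in *mxcG43* alone, like that of *lcs*, contrasts with *CG17105* and *CG15404*, where *mxcmbn1* was lower still. *CG42713*, without a known role here, was at 10.1 in wild type and at 0 in both mutants.

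Over all 3 libraries, 184 genes were at least 4 times higher in *mxcG43* than in both others, 123 of them protein coding, and 80 were at 0.25 times both others or less, 34 of them protein coding. *ple*, *e*, *b*, *dro5*, *MtnC* and *CG13560* are among the first, and *AttA*, *DptB* and *CG12506* among the second.

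Genes of hormones and late larval stages went both ways. Of 20 compared genes of the ecdysone response 1 was called, *Hr4*, a nuclear receptor of the early response, at 1.65 in wild type, 6.62 in *mxcG43* and 0.234 in *mxcmbn1*. Among the others *Hr46* was at 2.81, 7.71 and 0.233, and *ImpE2*, an ecdysone-inducible gene of imaginal discs, at 96.3, 204 and 4.38. The list's median was 0.25. *Fbp1*, the fat body receptor for larval serum proteins, was at 1129 in wild type, 4098 in *mxcG43* and 111 in *mxcmbn1*, 3.63 times higher, whereas the other 5 genes of the serum and storage protein list were below wild type.

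*Lsp1gamma*, a larval serum protein, was at 10657 in wild type and 6029 in *mxcG43*. The *Eig71E* genes, induced late by ecdysone, had 3 of 5 compared genes lower (60%, against 2.13% of all genes), all on few reads. *Eig71Eg* was at 9.33 and 1.67, on 23 and 4 reads, a ratio of 0.179 (0.0451 to 0.525). *Eig71Ee*, the abundant member, was at 2012 and 866, within 4 times. Glue genes had no call and a median of -0.40. *Ilp5*, an insulin-like peptide of brain neurosecretory cells, was at 0.646 in wild type, 9.66 in *mxcG43* and 0 in *mxcmbn1*, on 2, 29 and 0 reads, with an interval of 3.78 to 129 on its ratio of 15.0, while *Ilp2* (7.97 and 8.22) and *Ilp3* (7.76 and 6.34) were close.

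The study describes the wild-type larvae as mature, and the age of the *mxcG43* larvae within the 3rd instar is not given in the sources used here.

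**Figure D5:**
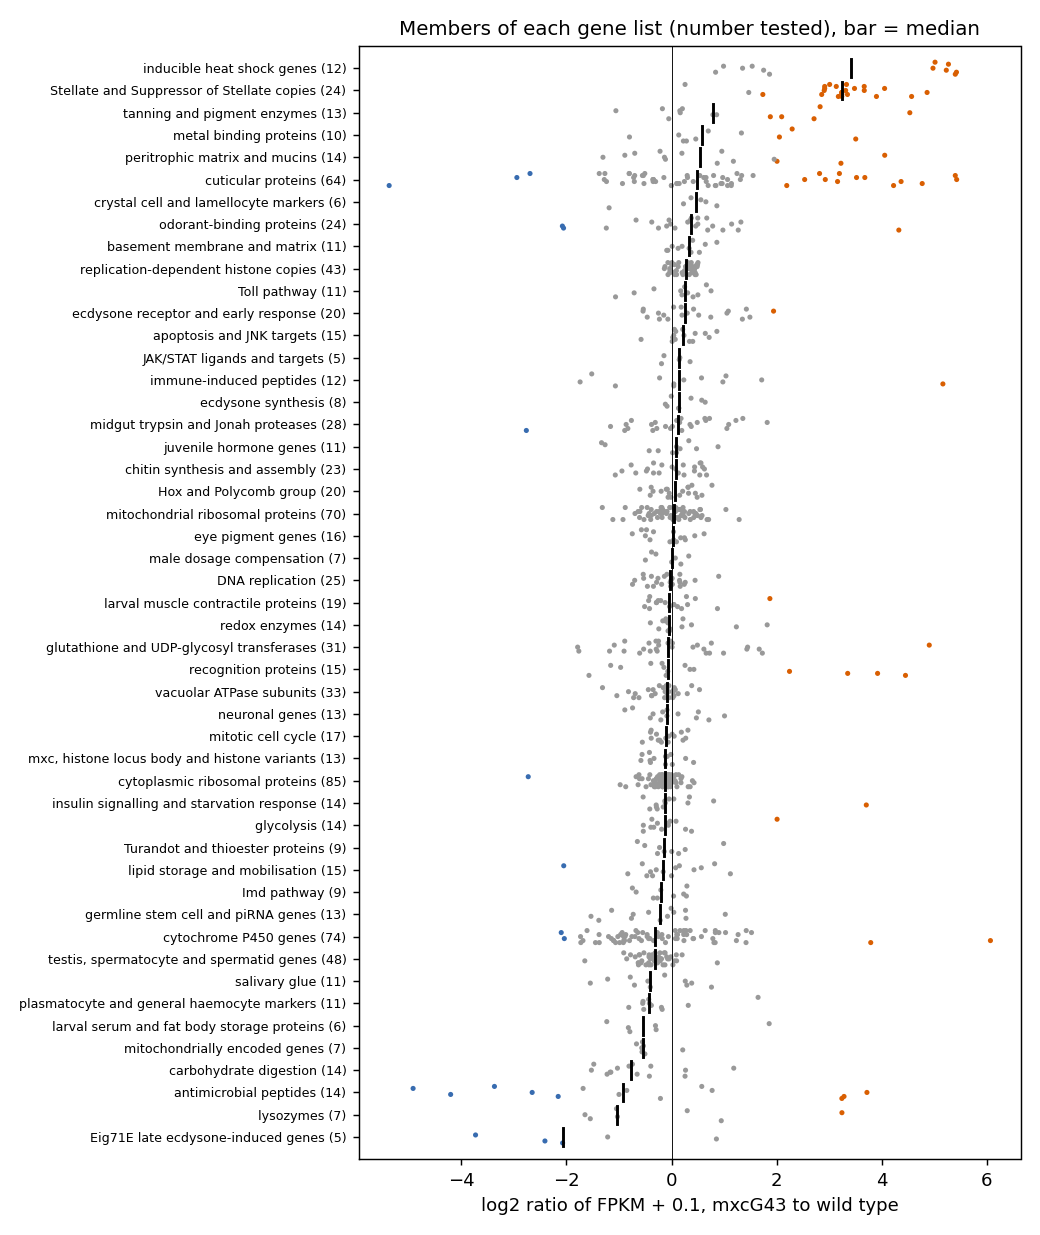
Log2 ratio of FPKM plus 0.1 (x) of *mxcG43* to wild type for each compared member of the lists with at least 5 compared genes, 1 row a list with its number of genes, orange for genes 4 times or more higher, blue for 0.25 times or less and a black bar at the median. The inducible heat shock list (3.42) and the *Stellate* list (3.24) have the highest medians and the *Eig71E* list (-2.07) the lowest, and most other bars lie within 1 of 0. Most compared *Stellate* copies passed the minimum only through *mxcG43*, and the heat shock list counts each *Hsp70* copy singly.

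Lists of general cell function had few calls, read against 3.04% higher and 2.13% lower over all genes. Of 85 cytoplasmic ribosomal protein genes 1 was called, *RpS28a* on 7 and 1 reads, and the median was -0.12. The 70 mitochondrial ribosomal proteins (0.04), 33 vacuolar ATPase subunits (-0.09) and 13 neuronal genes (-0.09) had no call. Contractile proteins of muscle had 1 of 19, *Act88F*, an actin of the flight muscle, at 0.595 in wild type and 2.45 in *mxcG43*. *Act57B*, the main larval muscle actin, was at 2149.7 and 2219.6. The 7 mitochondrially encoded genes had a median of -0.55, with *mt:CoI* at 15514 and 10917.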

How the data were processed

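Whole-larva RNA of 3 genotypes was measured with 1 library each and 51 bp reads from 1 end. The authors filtered the reads, aligned them to BDGP5 with TopHat2 2.0.6 and deposited FPKM values from Cufflinks for each gene; the filter and the annotation are not given in the sources used here. The deposited table has no counts, and depth was taken from whole-read ratios between libraries (0.970 for *mxcG43* to wild type). Whole reads were found for 4219 of 13310 entries above 0 in at least 2 libraries (110 after shuffling) and kept for 4168, within a tolerance of 6e-05. Reads of other genes were estimated from exon length in the BDGP6 annotation, which served only for that, for gene classes and for names (14603 entries matched). The floor was 3 reads.

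Ratios are plain FPKM ratios, and a gene needed an FPKM of at least 1 in either library and a 4-fold difference. Lists were described by counts and the median log2 difference of FPKM plus 0.1. The members and lists were chosen with earlier results of these data known. Genes named are *mxc*; the 12 highest and 12 lowest ratios (higher level at least 10, lower level above 0); the 6 highest levels at 0 in the other library, each way; the 8 largest rises and falls in FPKM among protein-coding genes past 4 times; genes the study names; and list members called (up to 4) or with the highest mean, from which the text gives those it describes. Other genes were chosen after their values were seen. Steps were tested on simulated data. Alternatives covered minimum FPKM, added constants, rescaling, zeros, joined entries, overlapping loci and other limits. The tools were pandas 2.3.3, numpy 2.4.6 and scipy 1.17.1 under Python 3.11.15, with matplotlib 3.10.9 for the plots.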

Additional observations from a re-analysis of the deposited data

Results flagged for a closer look

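Entries that join several genes were left out of the comparison, and 3 of them showed a signal above the wild-type level by 4 times or more. The entry of *Gr64d* and *Gr64e*, taste receptor genes, had a wild-type FPKM of 0.233 against 1.58 in *mxcG43*. The entry of *CG17560* and *mir-2494* was at 0 and 2.72, and that of *CG11638* and *CG32814* at 0.470 and 1.90. All 3 levels are low, and the reads of the joined genes were not separated.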

How the results depend on the processing

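No paired analysis was possible because each genotype has 1 library and no result comes from a test. The 353 higher and 247 lower genes became 818 and 536 with no minimum FPKM, 202 and 137 with a minimum of 5, 154 and 117 with a minimum of 10, and 182 and 131 with 1 added to both levels. At 2 times they were 756 and 800, and at 10 times 205 and 142. The lower count alone moved past 1.5 times without genes at 0 in either library (133), without overlapping loci (142) and with protein-coding genes only (126, an alternative added after seeing the data). With levels of 3 reads or fewer set to 3 reads, also added later, 258 genes were higher and 167 lower. Scaling to equal upper quartiles (0.958) or by the median ratio (0.964) gave 370 higher genes under either scaling and 241 and 240 lower.

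Of the genes more than 10 times higher (134), 59 were left with a minimum FPKM of 5, 48 with 10, 66 with 0.1 added and 37 with 1 added, and 561 were counted once genes at 0 in wild type were added. Of those under 1% (359), 116, 62 and 61 were left with a minimum of 1, 5 and 10, 61 and 31 with 0.1 and 1 added, 220 without overlapping loci, and 2 without genes at 0 in *mxcG43*. Of 255 list medians under the alternatives, 246 moved by at most 0.25 and 6 changed sign, all from medians within 0.1 of 0 under a rescaling: DNA replication, redox enzymes and larval muscle. Of 500 values of 125 named genes, none reversed among those past 4 times and 16 were no longer past it. Depth limits genes of few reads, and 1 library a genotype limits every comparison.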
